A study of Mus musculus with 9 samples.

Results

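*Tbx2* (ENSMUSG00000000093), *Acvrl1* (ENSMUSG00000000530) and *Col6a1* (ENSMUSG00000001119) are genes best known from connective tissue and blood vessels, and their RNA was counted in whole testis of WT, *Prm1*+/- and *Prm1*-/- males. The 3 genes were chosen by identifier from the 50433 loci listed in the count table, as genes of the somatic compartment with low counts. Their levels played no part in defining the genotypes. All 3 were counted in every male, with 7 to 38 counts per library, and all 3 passed the filter on low counts that left 17088 loci for testing.

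*Prm1* encodes protamine 1, a small basic protein that replaces histones when the chromatin of elongating spermatids is condensed. The study removed part of its coding sequence with CRISPR-Cas9 and profiled the RNA of testes with 0, 1 or 2 mutant copies. WT males carried no mutant copy, *Prm1*+/- males carried 1 and *Prm1*-/- males carried 2, with 3 individuals per genotype and no treatment. All 9 males are labelled with the C57BL/6 strain background, and both mutant groups carry the same in-frame deletion, which descends from a single selected animal. The testis was taken whole after its capsule, the tunica albuginea, had been removed, so each library mixes germ cells, Sertoli cells and the tissue between the tubules. The study's methods give an age of 8 to 13 weeks for the males it analysed. *Prm1* has no row under its Ensembl identifier, and the genotype labels were therefore not checked against its own counts.

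The seminiferous tubules, which hold the germ cells and Sertoli cells, are separated by an interstitium of Leydig cells, macrophages, fibroblasts and blood vessels. TBX2 is a T-box transcription factor that acts mostly as a repressor and is known from the mesenchyme of developing organs. ACVRL1, also called ALK1, is a receptor of the BMP and TGF-beta family found chiefly on endothelial cells, where it binds circulating BMP9 and BMP10 and passes the signal to SMAD transcription factors. COL6A1 is the alpha 1 chain of collagen VI, which assembles with an alpha 2 chain and an alpha 3 chain into beaded filaments of the extracellular matrix around fibroblasts, muscle and vessels.

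The libraries were made from the 3′ ends of polyadenylated RNA, so a count for one of these genes should arise near its poly(A) site. The ends of the annotated transcripts are therefore shown, read 5′ to 3′ on the transcribed strand as the last 30 bases of the transcript in the GENCODE M21 annotation of GRCm38. Capitals mark the poly(A) signal AATAAA, searched on the transcribed strand only.
Tbx2: aaatAATAAAaacgctatcatgcgatttga
Acvrl1: gtcttcAATAAAccatgtttgaccccctga
Col6a1: tatctctgctAATAAAggtttccatttttc
They lie at chr11:85841919-85841948 (plus strand) for *Tbx2*, chr15:101145307-101145336 (plus strand) for *Acvrl1* and chr10:76708792-76708821 (minus strand) for *Col6a1*, all within the 3′ untranslated part of the last exon. The signal is followed by 20 bases in *Tbx2*, 18 in *Acvrl1* and 14 in *Col6a1* before the annotated end. The same 6 letters occur in the last 30 bases of 35.5% of the 58793 protein-coding transcripts. A match describes the sequence and is no measurement of where transcripts ended in these testes.

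**Figure D1:**
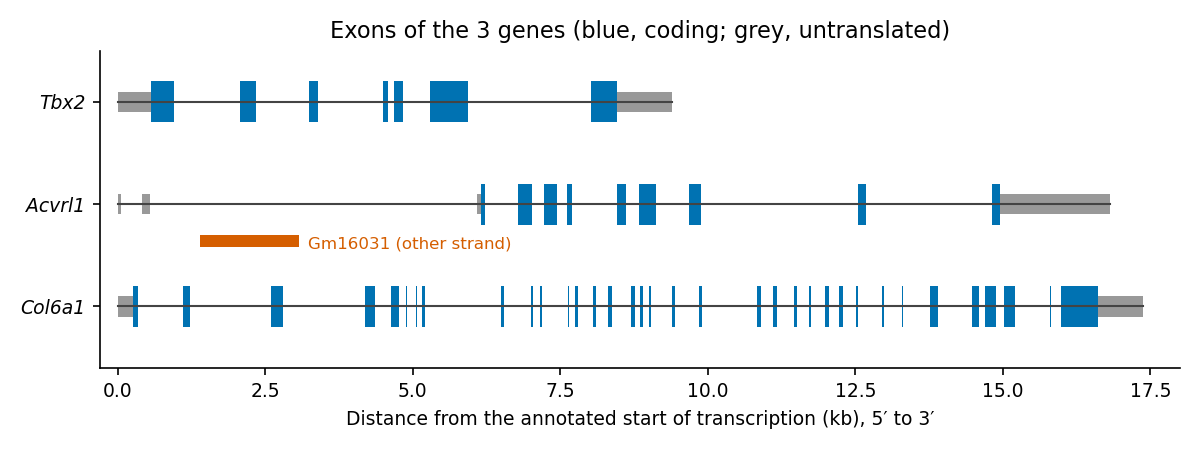
Exons of the 3 genes along the distance from the annotated start of transcription (horizontal axis, kb), with coding exons as tall blue bars, untranslated sequence as low grey bars and introns as lines. The 3′ untranslated part lies at the right end of each gene, and the antisense gene Gm16031 (orange) lies in the 5′ part of *Acvrl1*.

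*Tbx2* lies at chr11:85832551-85841948 on the plus strand and has 1 annotated transcript of 7 exons and 3626 bases, of which 2136 are coding and 934 form the 3′ untranslated part. *Acvrl1* lies at chr15:101128522-101145336 on the plus strand and has 11 annotated transcripts, 2 of which end at the end of the gene. The *Acvrl1* transcript drawn has a coding part of 1509 bases and a 3′ untranslated part of 1859 bases. *Col6a1* lies at chr10:76708792-76726168 on the minus strand, where 35 exons hold 3078 coding bases ahead of a 3′ untranslated part of 767 bases. The antisense gene *Gm16031* lies inside *Acvrl1*, far from the 3′ end, and had 0 counts over the 9 males. The strand setting used in counting is not given in the sources used here.

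The libraries held 3681615 to 5555676 counts in WT, 7282763 to 8347849 in *Prm1*+/- and 3792167 to 11036146 in *Prm1*-/- testis, and the largest total was 2.998 times the smallest. Every *Prm1*+/- total was above every WT total. Loci with an Ensembl identifier held 0.409% to 0.555% of each library, and the remaining counts belonged to 26197 assembled loci that the files do not pair with gene names or positions. Reads of one of the 3 genes may therefore also have been counted under an unnamed locus, and levels are compared only for the same gene between males. Levels are given as CPM, the count per 1000000 counts of the full library total. A count of 3 equals 0.272 to 0.815 CPM, depending on the library.

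*Tbx2* was counted 11, 9 and 9 times in WT replicates 1 to 3, 15, 18 and 12 times in *Prm1*+/- replicates 1 to 3, and 24, 8 and 12 times in *Prm1*-/- replicates 1 to 3. These counts equal 2.33, 2.44 and 1.62 CPM in WT, 2.04, 2.16 and 1.65 CPM in *Prm1*+/- and 2.17, 1.68 and 3.16 CPM in *Prm1*-/- testis. The *Prm1*-/- male with the most counts was the most deeply sequenced and had a middling level, whereas the highest level was that of *Prm1*-/- replicate 3 from 12 counts. The ranges of the 3 genotypes overlapped.

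*Acvrl1* was counted 8, 10 and 13 times in WT, 14, 19 and 18 times in *Prm1*+/- and 25, 11 and 7 times in *Prm1*-/- testis. The levels of this receptor were 1.69, 2.72 and 2.34 CPM in WT, 1.90, 2.28 and 2.47 CPM in *Prm1*+/- and 2.27, 2.31 and 1.85 CPM in *Prm1*-/- testis. Both the lowest and the highest level belonged to WT males, and both other genotypes lay between them.

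*Col6a1* was counted 18, 13 and 16 times in WT, 15, 13 and 15 times in *Prm1*+/- and 38, 8 and 12 times in *Prm1*-/- testis. The levels of this collagen chain were 3.81, 3.53 and 2.88 CPM in WT, 2.04, 1.56 and 2.06 CPM in *Prm1*+/- and 3.44, 1.68 and 3.16 CPM in *Prm1*-/- testis. All 3 *Prm1*+/- males lay below all 3 WT males, while the *Prm1*-/- males spread over both ranges.

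**Figure D2:**
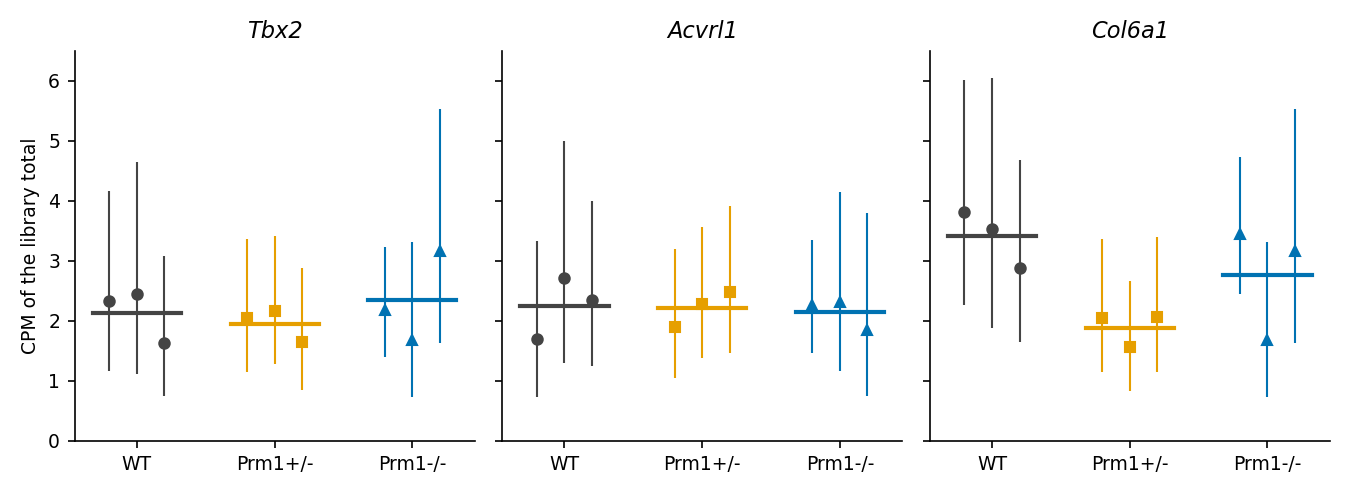
Level of each gene in each male (vertical axis, CPM of the library total) by genotype, with exact 95% Poisson intervals of the count as bars and the genotype mean as a horizontal line. *Tbx2* and *Acvrl1* overlap between genotypes, and for *Col6a1* the 3 *Prm1*+/- males, at 1.56 to 2.06 CPM, sit below the 3 WT males, at 2.88 to 3.81 CPM.

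The counting error of a single male was large. For *Tbx2*, the 9 counts of WT replicate 2 have an exact 95% Poisson interval of 4.12 to 17.1 counts, or 1.118 to 4.64 CPM. For *Acvrl1*, the 7 counts of *Prm1*-/- replicate 3, the fewest of all, allow 0.742 to 3.80 CPM. For *Col6a1*, the 38 counts of *Prm1*-/- replicate 1, the most of all, allow 2.44 to 4.73 CPM. These intervals cover counting error only, since PCR copies are not told apart and the counts were rebuilt from coverage.

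**Figure D3:**
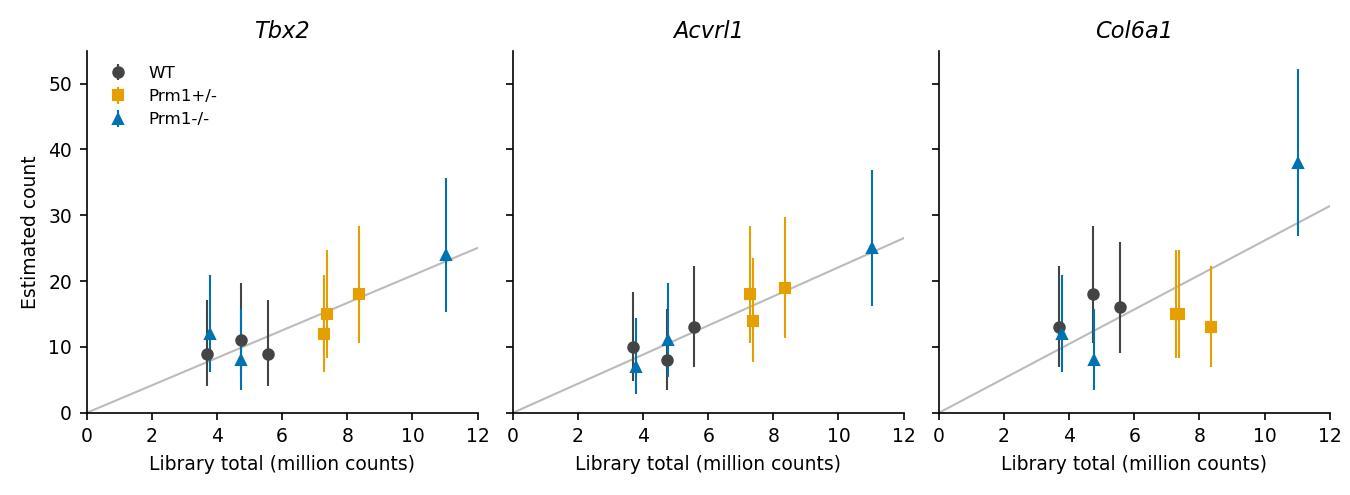
Estimated count of each gene (vertical axis) against the library total (horizontal axis, in units of 1000000 counts) in the 9 males, with exact 95% Poisson intervals as bars and a grey line for the same CPM in every male. *Tbx2* and *Acvrl1* follow the line, while for *Col6a1* the 3 *Prm1*+/- points and that of *Prm1*-/- replicate 2 lie below it.

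Over the 9 males the *Tbx2* level ranged from 1.62 to 3.16 CPM, *Acvrl1* from 1.69 to 2.72 CPM and *Col6a1* from 1.56 to 3.81 CPM. If 1 count were 1 independent read, counting alone would give a ratio of 1 between the chi-square statistic of the counts and its degrees of freedom. The counts were rebuilt from coverage, so that baseline is approximate. The ratio over all males was 0.520 for *Tbx2*, 0.233 for *Acvrl1* and 1.77 for *Col6a1*. Its median was 1.64 over the 716 Ensembl-identified genes with at least 100 summed counts, with quartiles of 1.05 and 2.68. By this ratio 1 gene lay below *Acvrl1*, 34 lay below *Tbx2* and 394 lay below *Col6a1*. *Tbx2*, *Acvrl1* and *Col6a1* had 118, 125 and 148 summed counts, and the set of 716 had no upper bound on counts. Where males differ, the ratio grows with the count, so a low rank does not show that a gene is steadier than others. Of the 716 genes, 79 (11.03%) were at 0 in at least 1 male, which none of the 3 was.

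Within genotypes, and with 1 count taken as 1 read, the SD between males stayed below the counting error except for *Tbx2* and *Col6a1* in *Prm1*-/- testis. The SD of *Tbx2* was 0.446 CPM in WT, 0.266 in *Prm1*+/- and 0.754 in *Prm1*-/- testis, against 0.678, 0.506 and 0.650 CPM from counting alone. For *Acvrl1* it was 0.518, 0.290 and 0.258 CPM against 0.701, 0.539 and 0.643 CPM. For *Col6a1* it was 0.477, 0.284 and 0.946 CPM against 0.863, 0.495 and 0.747 CPM. *Col6a1* in *Prm1*-/- testis was the most variable of these 9 sets of males, with a chi-square ratio of 1.77.

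The level of *Tbx2*, the T-box repressor, was 2.13 ± 0.446 CPM in WT, 1.95 ± 0.266 in *Prm1*+/- and 2.34 ± 0.754 in *Prm1*-/- testis (mean ± s.d., n = 3 males each). Its order was *Prm1*-/-, WT and *Prm1*+/-, and no neighbours in this order differed beyond their spread. *Acvrl1*, the endothelial receptor, was at 2.25 ± 0.518, 2.22 ± 0.290 and 2.14 ± 0.258 CPM in WT, *Prm1*+/- and *Prm1*-/- testis, which is within the spread of each genotype. *Col6a1* was at 3.41 ± 0.477 CPM in WT, 1.88 ± 0.284 CPM in *Prm1*+/- and 2.76 ± 0.946 CPM in *Prm1*-/- testis. Its order was WT, *Prm1*-/- and *Prm1*+/-, and each neighbouring pair overlapped. In RNA from whole testis, fewer cells of a type and less RNA per cell cannot be told apart.

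Summed over the 3 males of a genotype, the 29, 45 and 44 *Tbx2* counts of WT, *Prm1*+/- and *Prm1*-/- testis gave 2.08 CPM (95% interval from counting 1.39 to 2.98), 1.96 CPM (1.43 to 2.62) and 2.25 CPM (1.63 to 3.02). The 31, 51 and 43 *Acvrl1* counts gave 2.22 CPM (1.51 to 3.15), 2.22 CPM (1.65 to 2.92) and 2.20 CPM (1.59 to 2.96). The 47, 43 and 58 *Col6a1* counts gave 3.37 CPM (2.47 to 4.48), 1.87 CPM (1.35 to 2.52) and 2.96 CPM (2.25 to 3.83). The *Col6a1* intervals of WT and *Prm1*+/- testis touched only between 2.47 and 2.52 CPM, whereas those of *Tbx2* and *Acvrl1* overlapped over most of their length.

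The spread between the 3 genotype means was tested by exact permutation over all 1680 arrangements of the males. This permutation test has no direction and gave p = 0.7 for *Tbx2*, p = 0.925 for *Acvrl1* and p = 0.118 for *Col6a1*. A pair of genotypes with 3 males each allows 20 splits, and a two-sided p below 0.1 cannot be reached. p-values for single genes are given without adjustment where they come from permutations, which covered 9 pairs of genotypes and 3 tests across all genotypes.

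The first comparison asks whether the RNA of these somatic genes changed when both copies of *Prm1* were mutated. Between *Prm1*-/- and WT testis the edgeR quasi-likelihood test called 30 of the 17088 loci (0.176%) and 0 of the 3 genes, where a call needs an adjusted p under 0.05 together with a log2 fold change beyond 1 in either direction. Of the 929 tested loci with an Ensembl identifier, edgeR called 0 in this and in the other comparisons. Non-overlapping CPM ranges were found for 11.4% of tested loci and for 0 of the 3 genes. *Tbx2* was 0.210 CPM higher in *Prm1*-/- testis (exact permutation p = 0.8), with a log2 fold change of 0.15 (95% interval -0.64 to 0.95). *Acvrl1* was lower by 0.108 CPM (exact permutation p = 0.8), a value smaller than its SD in either genotype, and its log2 fold change was -0.03 (-0.81 to 0.76). *Col6a1* was lower by 0.643 CPM (exact permutation p = 0.4), with a log2 fold change of -0.26 (-0.998 to 0.48). The adjusted p of edgeR was 1 for each gene, and 0 of the 3 genes were called by DESeq2 in this or the other comparisons. The ratio of summed counts per total, with its exact interval from counting, was 1.08 (0.662 to 1.79) for *Tbx2*, 0.989 (0.609 to 1.62) for *Acvrl1* and 0.880 (0.589 to 1.32) for *Col6a1*. These counting intervals leave out the spread between males.

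The second comparison asks the same for the loss of 1 copy. Between *Prm1*+/- and WT testis edgeR called 20 loci (0.117%) and 0 of the 3 genes, and CPM ranges did not overlap for 15.2% of tested loci and for 1 of the 3 genes, *Col6a1*. *Tbx2* was 0.184 CPM lower in *Prm1*+/- testis (exact permutation p = 0.6), with a log2 fold change of -0.03 (95% interval -0.82 to 0.76) and an adjusted p of 0.997. *Acvrl1* was 0.0333 CPM lower in *Prm1*+/- testis (exact permutation p = 0.9). Its log2 fold change in edgeR had the opposite sign, at 0.07 (-0.69 to 0.82), with an adjusted p of 0.953. The ratios of summed counts were 0.942 (0.578 to 1.56) for *Tbx2* and 0.999 (0.627 to 1.62) for *Acvrl1*, both close to equality with wide bounds.

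*Col6a1* was 1.52 CPM lower in *Prm1*+/- than in WT testis, lower in 3 of 3 *Prm1*+/- males, and its exact permutation p of 0.1 is the smallest this design can give. In edgeR its log2 fold change was -0.76 (SE 0.32, 95% interval -1.51 to -0.02), with an unadjusted p of 0.0450 and an adjusted p of 0.493, so it did not pass the test over all loci. Over 17 fits the adjusted p ran from 0.404 to 0.899, and the unadjusted p was under 0.05 in 9 of them. The unadjusted p was 0.115 with DESeq2, 0.112 without WT replicate 1 and 0.124 without *Prm1*+/- replicate 2. The unadjusted p was under 0.05 for 10.04% of all tested loci in this comparison, and an unadjusted p of that size is read against that share. The ratio of summed counts was 0.556 (0.359 to 0.859). The summed counts were 47 in WT and 43 in *Prm1*+/- testis, from totals that were larger in every *Prm1*+/- male. Library total and genotype cannot be told apart between these groups, in which the summed counts of *Tbx2* went from 29 to 45 and those of *Acvrl1* from 31 to 51. In a single random thinning of every library to the smallest total, the counts were 13, 13 and 7 in WT and 3, 2 and 5 in *Prm1*+/- testis, and the log2 fold change was -1.61 with an adjusted p of 0.463 in edgeR. On average such thinning would leave 37.6 summed counts in WT and 20.8 in *Prm1*+/- testis, against the 33 and 10 drawn, so the larger fold change belongs to that draw.

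The third comparison sets the mutant genotypes against each other. Between *Prm1*-/- and *Prm1*+/- testis edgeR called 39 loci (0.228%) and 0 of the 3 genes, and CPM ranges did not overlap for 26.6% of tested loci and for 0 of the 3 genes. *Tbx2* was 0.394 CPM higher in *Prm1*-/- testis (exact permutation p = 0.4), with a log2 fold change of 0.18 (95% interval -0.55 to 0.92) and an adjusted p of 0.857. *Acvrl1* was lower by 0.0744 CPM (exact permutation p = 0.6), with a log2 fold change of -0.09 (-0.78 to 0.59) and an adjusted p of 0.944. For these 2 genes the ratios of summed counts were 1.15 (0.740 to 1.78) and 0.990 (0.644 to 1.52).

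*Col6a1* was 0.879 CPM higher in *Prm1*-/- than in *Prm1*+/- testis (exact permutation p = 0.3), with a log2 fold change of 0.50 (-0.23 to 1.25) and an adjusted p of 0.511 in edgeR. *Prm1*-/- replicates 1 and 3 lay above every *Prm1*+/- male and replicate 2 lay among them. The ratio of summed counts, 1.58, had a counting interval of 1.05 to 2.41, which also leaves out that spread. In the same single draw, with 10 *Prm1*+/- counts where 20.8 would be left on average, the log2 fold change was 1.56 with an adjusted p of 0.354 in edgeR, the low end of the 0.354 to 0.801 found over the alternatives. The 3 comparisons share samples, and those involving WT share the same 3 males.

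**Figure D4:**
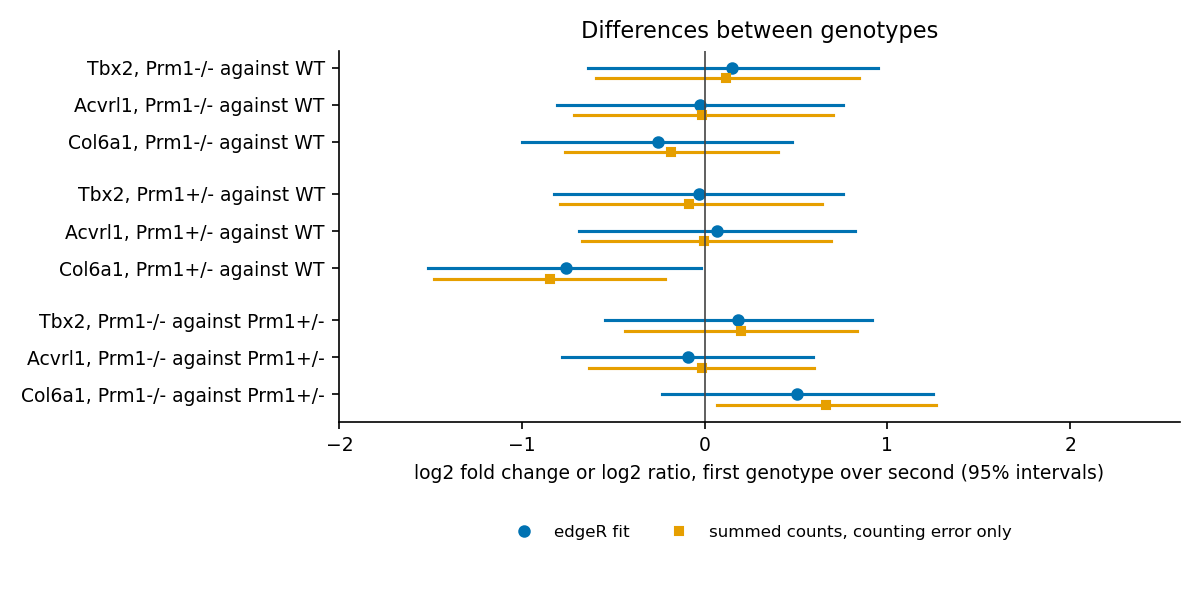
Differences between genotypes for each gene (horizontal axis, log2 scale, first genotype over second), as the edgeR log2 fold change (blue circles) and the ratio of summed counts per total (orange squares), with 95% intervals as lines. The edgeR intervals of 8 of the 9 differences include 0, and that of *Col6a1* between *Prm1*+/- and WT testis ends at -0.02.

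To set the 3 genes among genes of the same families and cells, 153 genes of signalling, matrix and T-box families and of testis cell types were listed. Of these, 52 have an entry under an Ensembl identifier, 32 had at least 10 summed counts and 16 were tested. The 16 are the 3 genes and 13 others, and 0 of the 16 were called in any comparison by edgeR or by DESeq2. An unadjusted edgeR p under 0.05 was reached by 1, 2 and 0 of the 16 in the 3 comparisons in the order above. The 1 was *Col6a5*, and the 2 were *Col6a1* itself and *Pdgfra*. Over all tested loci the shares were 4.72%, 10.04% and 12.03%. Fold changes given below for genes that the filter removed come from the same fit without the filter.

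Among 30 collagens and matrix genes, 9 had an entry and 5, *Col6a1* included, were tested. Their median log2 fold change was -0.55 in *Prm1*-/- and -0.62 in *Prm1*+/- against WT testis, beside 0.01 and -0.02 over all tested loci, and 0 of 5 passed the test in either direction. *Col6a3*, the alpha 3 chain that joins the alpha 1 chain in collagen VI, was counted 24, 29 and 23 times in WT, 16, 25 and 16 times in *Prm1*+/- and 52, 0 and 0 times in *Prm1*-/- testis. It was thus listed at 0 in 2 *Prm1*-/- males in which *Col6a1* had 8 and 12 counts. The level of *Col6a3* was 5.70 ± 1.94 CPM in WT and 2.45 ± 0.468 CPM in *Prm1*+/- testis (n = 3 each). Each *Prm1*+/- male lay below each WT male for *Col6a3*, with a log2 fold change of -1.11 and an adjusted p of 0.731 in edgeR. *Col6a2*, the alpha 2 chain, had 0, 0 and 2 counts in WT, 0, 11 and 14 in *Prm1*+/- and 2, 0 and 0 in *Prm1*-/- testis. The entries of the partner chains were therefore at 0 in some males of a genotype and counted in others, for *Col6a3* only in *Prm1*-/- testis. *Col6a5*, another collagen VI chain, was at 4.56 ± 0.990 CPM in WT, 3.38 ± 0.561 CPM in *Prm1*+/- and 2.75 ± 0.569 CPM in *Prm1*-/- testis (n = 3 each), with a log2 fold change of -0.69 in *Prm1*-/- against WT testis and an adjusted p of 0.995 in edgeR. Each mutant male lay below each WT male for *Col6a5*. Over all tested loci, ranges did not overlap with WT for 15.2% in *Prm1*+/- and 11.4% in *Prm1*-/- testis.

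*Antxr1*, a cell-surface receptor that binds collagen, was at 2.97 ± 0.821, 1.80 ± 0.318 and 2.04 ± 0.931 CPM in WT, *Prm1*+/- and *Prm1*-/- testis. *Fbn1*, which encodes the microfibril protein fibrillin 1, was at 2.06 ± 0.415, 2.04 ± 0.900 and 1.39 ± 0.410 CPM. *Lox*, the enzyme that cross-links collagen and elastin, was at 1.497 ± 0.174, 1.24 ± 0.352 and 1.08 ± 0.238 CPM. *Antxr1* and *Fbn1* did not pass the test, and *Lox* was removed by the filter. *Col5a2*, a chain of the fibrillar collagen V, was listed at 0 in all WT males and had 9, 5 and 3 counts in *Prm1*-/- males, and *Cspg4*, a proteoglycan of pericytes, had 0 to 5 counts in every male.

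Of 10 markers of fibroblasts and stroma, 5 had an entry and 3 were tested. The summed level of the list was 9.90 to 11.2 CPM in WT, 5.57 to 7.43 CPM in *Prm1*+/- and 6.10 to 14.8 CPM in *Prm1*-/- males, and *Tbx2* and *Col6a1* are among its 5. *Pdgfra*, the growth factor receptor of fibroblasts and Leydig cell progenitors, was counted 24, 19 and 30 times in WT, 11, 31 and 16 times in *Prm1*+/- and 53, 12 and 28 times in *Prm1*-/- testis. Like *Col6a1*, its level in *Prm1*+/- testis lay below that of WT, at 2.47 ± 1.13 against 5.21 ± 0.167 CPM, with a log2 fold change of -0.99 and an adjusted p of 0.498 in edgeR. *Pdgfrb*, a receptor of pericytes, was listed at 0 in 7 of the 9 males. *Dcn*, *Lum*, *Col1a1*, *Col1a2* and *Col3a1*, defining genes of fibroblasts, have no entry, so the stromal label of *Tbx2* and *Col6a1* was checked against few genes. The part of the stromal cell number in the *Col6a1* values was not tested.

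Of 12 endothelial markers, 8 had an entry and 5, *Acvrl1* included, were tested. Their summed level was 18.6 to 21.2 CPM in WT, 17.3 to 18.7 CPM in *Prm1*+/- and 18.5 to 20.6 CPM in *Prm1*-/- males. *Kdr* and *Flt1*, which encode the VEGF receptors of endothelial cells, carried most of these counts. *Kdr* was at 4.78 ± 0.142, 5.50 ± 0.478 and 5.27 ± 0.971 CPM and *Flt1* at 6.69 ± 0.928, 6.43 ± 1.38 and 5.76 ± 0.672 CPM in WT, *Prm1*+/- and *Prm1*-/- testis. Each *Prm1*+/- male lay above each WT male for *Kdr*, beside 15.2% of all tested loci without overlap in this comparison, while the ranges of *Flt1* overlapped. Like *Acvrl1*, both were counted in every male, and 0 of 5 tested endothelial genes passed the test.

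The other endothelial genes were less even. *Pecam1*, an adhesion molecule of endothelial junctions, was counted 10, 16 and 4 times in WT, 3, 5 and 17 times in *Prm1*+/- and 23, 12 and 13 times in *Prm1*-/- testis. *Cdh5*, the cadherin of the same junctions, had 8, 0 and 20 counts in WT, 10, 16 and 0 in *Prm1*+/- and 19, 10 and 0 in *Prm1*-/- testis, so 1 male of each genotype was listed at 0. *Tek*, the angiopoietin receptor, was at 1.36 ± 0.506, 1.60 ± 0.223 and 1.53 ± 0.601 CPM. *Emcn*, a sialomucin of capillaries and veins, had 6, 2 and 7 counts in WT, 3, 0 and 1 in *Prm1*+/- and 7, 2 and 0 in *Prm1*-/- testis.

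**Figure D5:**
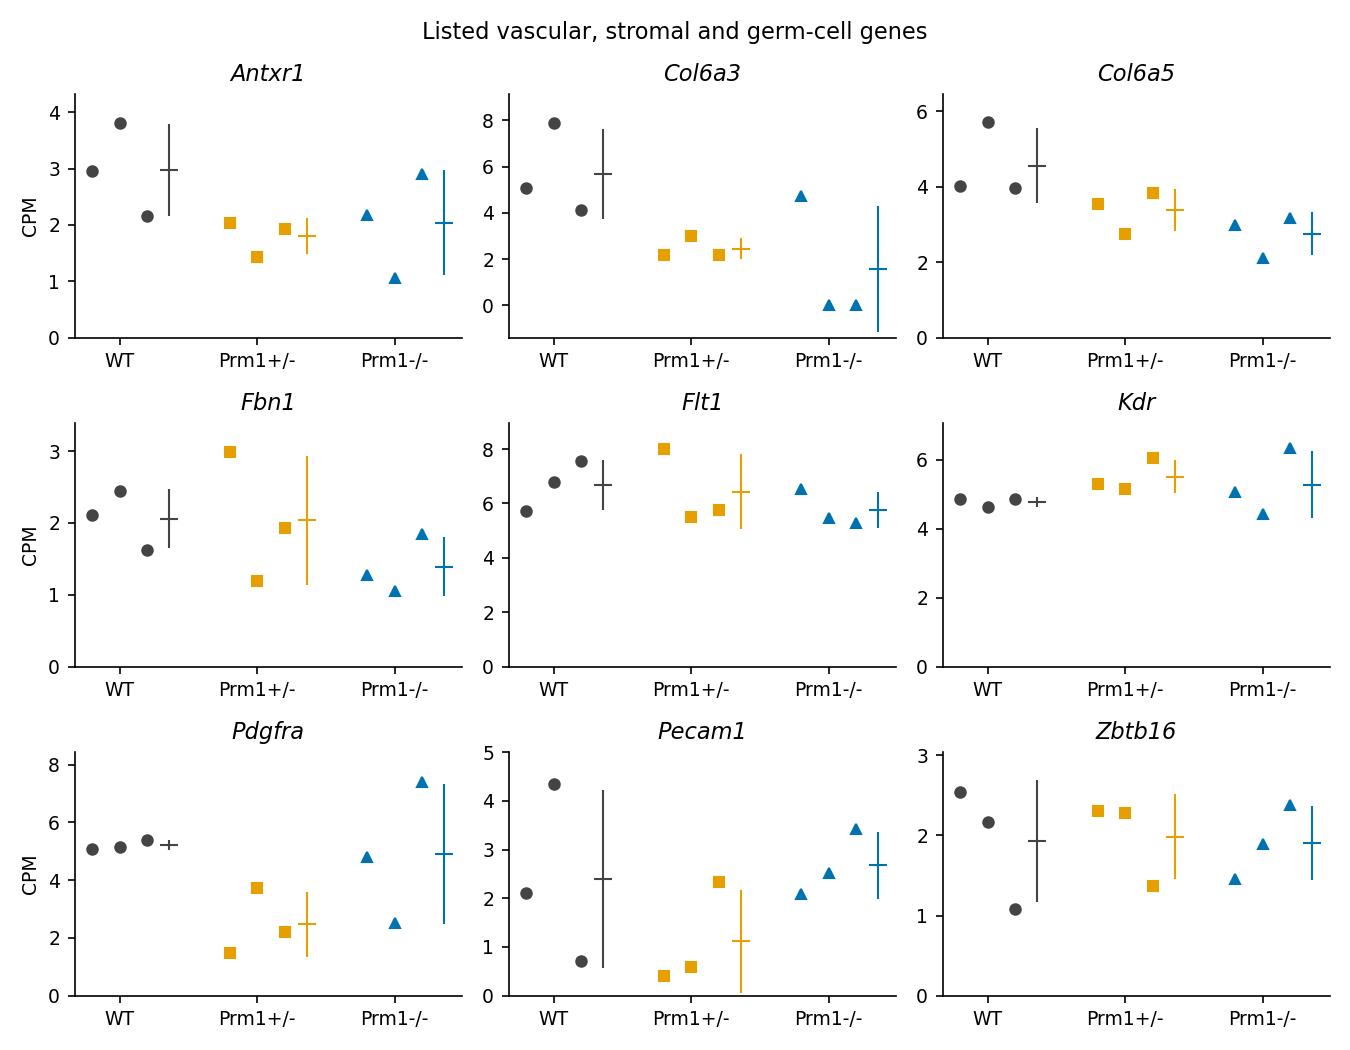
Level of 9 listed genes (vertical axes, CPM of the library total, a separate scale for each gene) in each male by genotype, with the mean and SD beside the points. *Flt1* overlaps between genotypes, and *Col6a3* is at 0 in 2 *Prm1*-/- males. *Kdr* is higher, and *Pdgfra*, *Antxr1*, *Col6a3* and *Col6a5* are lower, in each *Prm1*+/- male than in each WT male. Over all tested loci, 15.2% do not overlap between these 2 genotypes.

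In the BMP and TGF-beta pathway, in which *Acvrl1* acts, 12 of 33 genes had an entry and 2 were tested, with 0 called. The other tested gene was *Smad9*, which encodes a transcription factor phosphorylated by BMP receptors, at 1.77 ± 0.652, 1.26 ± 0.140 and 1.69 ± 0.115 CPM in WT, *Prm1*+/- and *Prm1*-/- testis. *Tgfbr2*, the type II receptor of TGF-beta, was at 1.58 ± 0.0832, 1.38 ± 0.290 and 1.18 ± 0.133 CPM, and the ligand *Tgfb2* was at 1.51 ± 0.205, 1.37 ± 0.485 and 1.18 ± 0.133 CPM. The ligand *Bmp6* had 4, 0 and 4 counts in WT, 7, 10 and 8 in *Prm1*+/- and 0, 0 and 4 in *Prm1*-/- testis. The co-receptor *Eng* and the partner receptor *Bmpr2* have no entry, and *Gdf2* and *Bmp10*, which encode the ligands of ACVRL1, were listed at 0 in every male.

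Of 17 T-box genes, 11 had an entry and 2, *Tbx2* and *Tbr1*, were tested, with 0 called. *Tbx3*, the closest relative of *Tbx2* and also a repressor, had 10, 6 and 9 counts in WT, 11, 7 and 11 in *Prm1*+/- and 12, 8 and 12 in *Prm1*-/- testis, or 1.79 ± 0.283, 1.28 ± 0.383 and 1.98 ± 1.07 CPM. Each *Prm1*+/- male lay below each WT male for *Tbx3*, while the *Prm1*-/- males spread over both ranges. The share of tested loci without overlap between *Prm1*+/- and WT males was 15.2%, and *Tbx3* was not among those tested. *Tbx4*, which lies 44.5 kb from *Tbx2*, was listed at 0 in the WT males and had 9, 6 and 6 counts in *Prm1*+/- and 9, 0 and 2 in *Prm1*-/- testis. *Tbr1*, a factor known from the cerebral cortex, was at 1.90 ± 0.592, 1.38 ± 0.490 and 1.32 ± 0.485 CPM. *Tbx15*, *Tbx22* and *Eomes* had 0 to 9 counts per male and were at 0 in at least 1 WT male each.

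Markers of other cells were too sparse to show whether the make-up of the testes differed. Of 8 Leydig cell markers only *Lhcgr*, the receptor for luteinizing hormone, had an entry, with 6, 6 and 11 counts in WT, 6, 0 and 0 in *Prm1*+/- and 15, 6 and 0 in *Prm1*-/- testis. Of 8 blood cell markers *Ptprc*, the pan-leukocyte antigen CD45, had 9, 7 and 9 counts in WT, 9, 1 and 0 in *Prm1*+/- and 11, 8 and 7 in *Prm1*-/- testis, while *Cd3e* and *Cd79a* were listed at 0. *Zbtb16*, a factor of undifferentiated spermatogonia and the only one of 14 germ cell markers with an entry, was at 1.93 ± 0.759, 1.99 ± 0.531 and 1.91 ± 0.462 CPM. Of 9 Sertoli cell markers only *Amh* had an entry, which was listed at 0, and 0 of 7 peritubular myoid and 0 of 8 macrophage markers had one. Of 6 epididymal markers 4 had an entry, and their summed level was at most 0.423 CPM in any male. From WT to *Prm1*+/- males, the mean level of *Col6a1* fell, and so did those of *Lhcgr*, *Ptprc*, *Pdgfra*, *Pecam1*, *Cdh5* and *Emcn*. The *Prm1*+/- means of *Lhcgr* and *Ptprc* rest on the few counts given above. The mean rose for *Kdr* (4.78 to 5.50 CPM), *Tek* (1.36 to 1.60) and *Zbtb16* (1.93 to 1.99). It was lower by smaller steps for *Tbx2* (2.13 to 1.95), *Flt1* (6.69 to 6.43) and *Acvrl1* (2.25 to 2.22). The part of cell make-up in the *Col6a1* values was not tested.

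The 3 genes did not share a profile across the males. Pearson's r of log2(CPM + 0.5) over the 9 males was -0.432 between *Tbx2* and *Acvrl1*, 0.502 between *Tbx2* and *Col6a1* and -0.205 between *Acvrl1* and *Col6a1*. Among 2182 Ensembl-identified genes with at least 30 summed counts, the genes with the most similar profile to *Tbx2* were *Ago1* (r = 0.925), *Prdm16* (0.924) and *Olfr1508* (0.923). For *Acvrl1* they were *Hgd* (0.967), *Peg12* (0.902) and *Slc46a3* (0.879), and for *Col6a1* they were *Rbms2* (0.923), *BC025920* (0.915) and the collagen receptor gene *Antxr1* (0.862). All these genes have low counts and share the same 9 libraries and totals, and the values describe these males only.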

How the data were processed

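RNA from whole testis of 3 WT, 3 *Prm1*+/- and 3 *Prm1*-/- mice was sequenced by the authors as 3′-mRNA libraries (QuantSeq). Genotypes and replicate numbers were taken from the labels. According to the submitters' processing notes, HISAT2 2.1, StringTie 1.3.3 and DESeq2 1.16.1 were used with GRCm38. The deposited values are estimated counts, which the program supplied with StringTie rebuilds from coverage, transcript length and a read length. That read length is not given in the sources used here, so 1 count need not be exactly 1 read. The values are whole numbers, are not scaled for library size and were used as deposited, and 0 pairs of samples had identical columns. Genes were looked up by Ensembl identifier, and 24131 of 24236 identifiers matched a symbol.

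CPM were computed on the full library total, with exact Poisson 95% intervals per male and exact conditional intervals for ratios of summed counts. Exact permutation tests were two-sided for pairs of genotypes and without direction across all 3 genotypes. Loci were filtered with filterByExpr (minimum count 10), scaled with TMM and tested with glmQLFit and glmQLFTest of edgeR 4.0.16 in R 4.3.3 with all 9 samples, with Benjamini-Hochberg adjustment over the 17088 loci left. Standard errors are from the model, or from Poisson counting where that was larger. edgeR raises a p-value to that of a Poisson fit where the latter is larger, so p-values and intervals need not match exactly. The procedure was tested on simulated counts. Replicates are separate individuals. Genes named are the 3 genes, genes of fixed family and marker lists with at least 10 summed counts, and the 3 genes most correlated with each. Listed genes with no entry or 0 counts are also named, without values, and were chosen after their values were seen. The genes and lists were chosen with earlier results of these data known. Alternatives were DESeq2 1.42.0, RLE and library-total scaling, other filters, other denominators of CPM, 2 genotypes only, a replicate block, thinning, and each male left out in turn.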

Additional observations from a re-analysis of the deposited data

How the results depend on the processing

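None of the 3 genes was called under any alternative in which it had a value. Of 138 alternative log2 fold changes of the 3 genes 125 kept their direction, and of 72 alternative differences in mean CPM 59 did. All those of *Col6a1* kept it, but leaving out 1 male at a time moved its log2 fold change between -0.48 (without *Prm1*-/- replicate 1) and -0.01 (without *Prm1*-/- replicate 2) in *Prm1*-/- against WT testis, -0.85 and -0.63 in *Prm1*+/- against WT testis and 0.28 and 0.75 between the mutants, without the same 2 males, and its difference in mean CPM between -0.983 and -0.103, -1.79 and -1.32, and 0.539 and 1.42. The reversed values were small and belonged to *Tbx2* and *Acvrl1*. Without the filter on low counts, the *Acvrl1* log2 fold change in *Prm1*-/- against WT testis was 0.01, and with full library totals it was -0.02 in *Prm1*+/- against WT testis. In that last comparison, the difference per 1000000 counts of Ensembl-identified loci was 3.92 for *Tbx2* and 31.9 for *Acvrl1*, and with TMM-scaled totals it was 0.0984 CPM for *Acvrl1*. Leaving out 1 male at a time gave log2 fold changes in the 3 comparisons, in the order of the report, that ranged from -0.05 to 0.32, -0.18 to 0.07 and -0.01 to 0.36 for *Tbx2*, and from -0.18 to 0.10, -0.10 to 0.17 and -0.19 to 0.03 for *Acvrl1*. The difference in mean CPM then ranged from -0.202 to 0.539 (*Prm1*-/- against WT) and -0.018 to 0.723 (*Prm1*-/- against *Prm1*+/-) for *Tbx2*, and from -0.386 to 0.126, -0.312 to 0.2 and -0.232 to 0.0736 in the 3 comparisons for *Acvrl1*.

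The number of loci called moved more. DESeq2 called 154, 141 and 261 loci in the 3 comparisons, and leaving out 1 male gave 17 to 66, 5 to 334 and 21 to 598. At least 10 counts in every sample left 3 calls in *Prm1*+/- against WT testis and removed all 3 genes, and fitting 2 genotypes alone gave 80 calls in *Prm1*-/- against *Prm1*+/- testis. The cause of these shifts was not tested. Same-numbered males did not deviate together (r from -0.121 to 0.0785 over 9 pairs, 0 above 0.1), and with a replicate block edgeR called 17, 0 and 21 loci, with 1829 loci at an unadjusted p under 0.05 in *Prm1*+/- against WT testis. Under the block the *Col6a1* log2 fold change in *Prm1*+/- against WT testis was -0.77, with an adjusted p of 0.464. Thinning removed *Tbx2* and *Acvrl1* through the filter. With 7 to 38 counts per male, depth limits every value given here.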
